A study of Mus musculus with 4 samples.

Results

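Mesenchymal transition genes are described here as 9 genes chosen by name: the transcription factor genes Snai1, Snai2, Zeb1, Zeb2 and Twist1, the cytoskeletal and adhesion genes Vim and Cdh2, and the matrix genes Tgfbi and Mmp14. Of the 9, 8 had probes among the 16593 genes with a symbol on the arrays, and 14 of the 25697 probes belonged to them. Snai2 was not analysed here. Where a gene had more than 1 probe, the probe with the highest mean log2 intensity over the 4 arrays represents it.

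An epithelial-mesenchymal transition is the change in which cells lose E-cadherin junctions, simple keratins and apical-basal polarity and gain a migratory, matrix-remodelling phenotype. In the embryo it takes place at the primitive streak, where epiblast cells leave the epithelium. Zinc finger proteins of the SNAIL and ZEB families bind E-box sequences and repress epithelial genes such as Cdh1, TWIST1 is a basic helix-loop-helix factor that acts with them, and vimentin and N-cadherin are products that mesenchymal cells make.

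The cells labelled parnate/mAMFGi were mouse embryonic stem (ES) cells obtained by converting epiblast stem cells (EpiSCs) with small molecules, and they were compared with EpiSCs, which are pluripotent cells of the postimplantation epiblast. Parnate (tranylcypromine) inhibits the histone demethylase LSD1, and the labels do not spell out mAMFGi. The parnate/mAMFGi cells grew in medium with 10% fetal bovine serum and 1000 units/ml of LIF. The EpiSCs grew in medium with 20% serum replacement and 10 ng/ml of bFGF. Medium, small-molecule treatment and cell type thus cannot be told apart. Both were kept on irradiated mouse embryonic fibroblast feeders, and each group had 2 Illumina bead arrays that the labels call biological replicates. The labels give no strain, sex, passage or clone and do not say whether feeders were removed, and p-values measure only the spread between these samples.

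Values are linear intensities as processed by the authors, and each log2 fold change sets parnate/mAMFGi cells over EpiSCs. The median intensity was 52 on both parnate/mAMFGi arrays, against 50 and 50.3 on the EpiSC arrays, and no array held a value below 25.5, so background or an offset remained and folds of dim probes are understated. Probes differ in efficiency, and their intensities are not compared between genes. Of 11 measured ES cell markers, 10 rose in parnate/mAMFGi cells and 1, Nr0b1, did not pass. Of 10 epiblast markers, 4 rose, 3 fell and 3 did not pass, so this list did not separate the groups in 1 direction. The rises were in Otx2 (log2 fold change 0.59), Pou3f1 (1.19), Fgf15 (1.25) and Dnmt3b (0.57). The falls were in Lefty1 (−3.20), Fgf5 (−0.78) and Sox3 (−0.49). In EpiSCs the list's members Cer1, Foxa2 and Sox3 read at most 65.5, near the array medians. Fgf5 read 289.5 and 210.3 in EpiSCs, against 144.1 and 143.6 in parnate/mAMFGi cells.

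Fibroblast feeder markers were higher in parnate/mAMFGi cells. Of 17, 13 rose, 1 (Thy1) fell and 3 did not pass. Their summed intensity was 7812 and 7249 in parnate/mAMFGi cells and 2700 and 2386 in EpiSCs. Bright probes weigh most in this sum: Fbln2 and Col6a1 read 1605 and 1483 on the array of parnate/mAMFGi replicate 1. The collagen crosslinking enzyme gene Lox had the largest change, with a log2 fold change of 4.23. Postn, Fap and Fbln5, which did not pass, read at most 43.9 on any array. Fibroblasts also express Vim, Snai1, Twist1, Zeb1, Zeb2, Tgfbi and Mmp14, and the part of feeder RNA in the values below was not tested. In such bulk samples, fewer cells of a type and less RNA per cell cannot be told apart.

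The mesenchymal transition genes did not move in 1 direction. Zeb1, Tgfbi and Vim fell in parnate/mAMFGi cells, Snai1, Twist1 and Mmp14 rose, and Zeb2 and Cdh2 did not pass an adjusted p of 0.05 (limma, Benjamini-Hochberg over all probes). The 3 rises and 3 falls among 8 genes stand beside 20.2% of all genes that rose and 21.2% that fell. Together, 6 of 8 passed, against 41.5% of all genes. The same shares of all genes stand beside the counts in the related gene lists. A single member, Tgfbi, changed by at least 2-fold, as did 11.4% of all genes. The median log2 fold change of the 8 was −0.07, against 0.02 over all genes.

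Brightness separates the members into 2 sets. Vim, Zeb1, Tgfbi and Mmp14 had a mean intensity of at least 104, which is 2 times the higher array median, and 4 of these 4 changed, where 72.8% of genes that bright did. Snai1, Twist1, Zeb2 and Cdh2 lay below it, and 2 of these 4 changed, where 22.7% of such dim genes did. Both arrays of a group lay beyond both arrays of the other for 8 of 8 members and for 66.1% of all genes. With 2 arrays a group, an exact two-sided permutation test of a single gene cannot give a p below 0.333, so the calls rest on the spread that limma shares across probes.

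**Figure D1:**
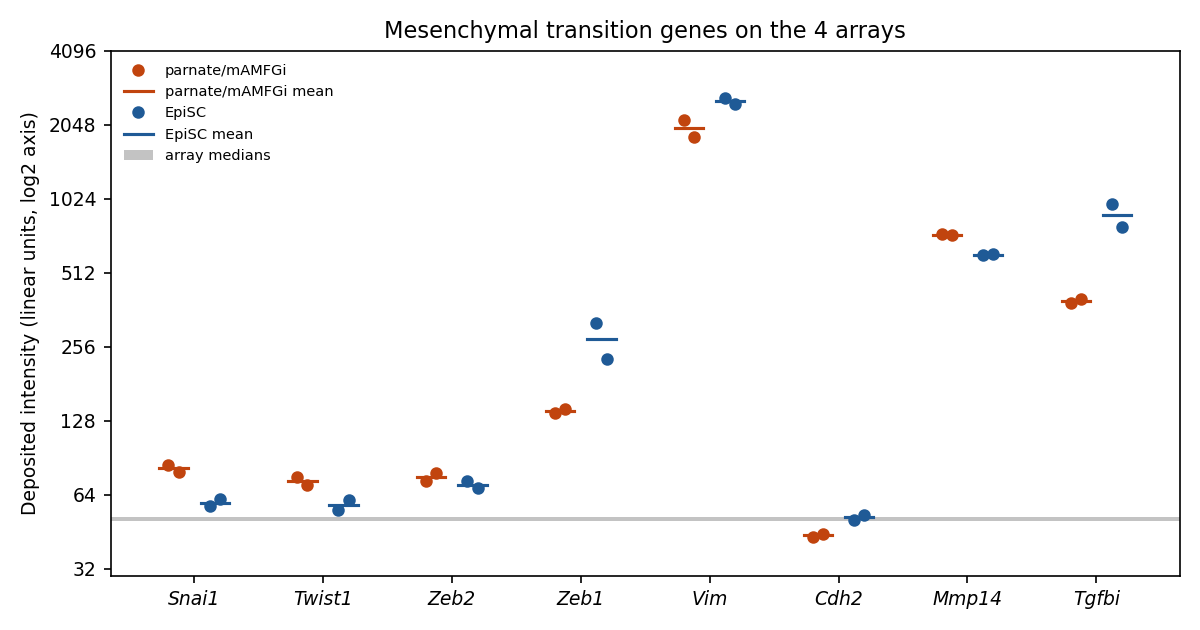
Deposited intensity (linear units on a log2 axis) of the 8 measured mesenchymal transition genes on the 2 parnate/mAMFGi arrays (left of each pair) and the 2 EpiSC arrays (right of each pair), with group means as short lines and the range of the array medians as a grey band. Zeb1, Vim and Tgfbi lie lower in parnate/mAMFGi cells, and Snai1, Twist1, Zeb2 and Cdh2 lie close to the grey band in both groups.

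**Figure D2:**
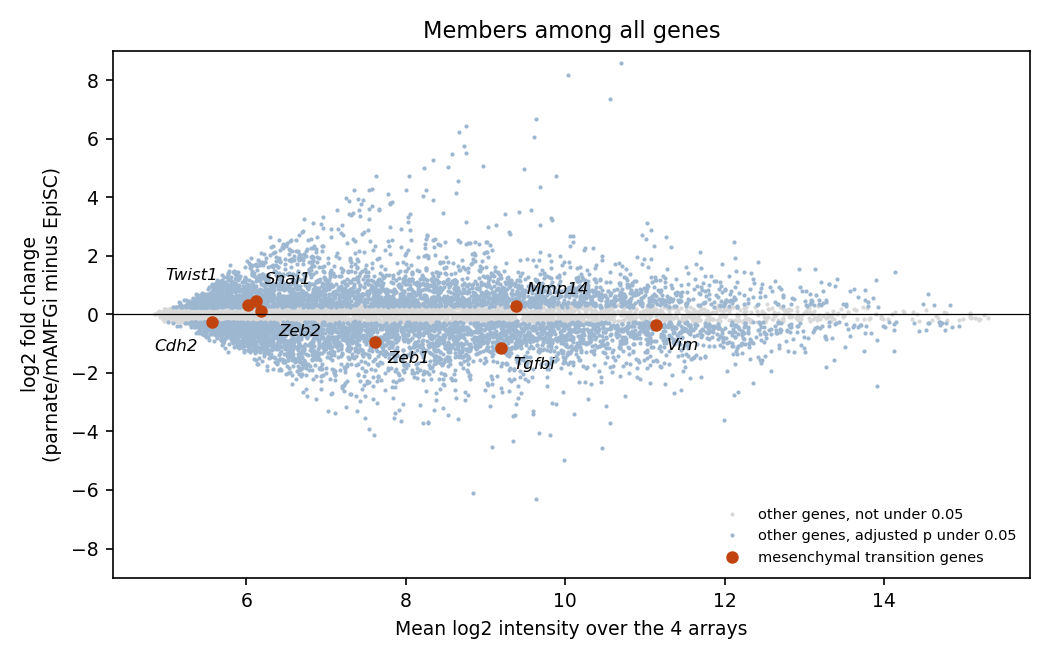
The log2 fold change of each gene (parnate/mAMFGi minus EpiSC) against its mean log2 intensity over the 4 arrays, with one point for each of 16593 genes and the 8 members in orange. The members lie between −1.16 (Tgfbi) and 0.46 (Snai1), inside the spread of all genes, which runs from −6.32 to 8.57.

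SNAI1 is a zinc finger repressor of Cdh1 and is needed for gastrulation in the mouse, and the human protein is known to bind an E-box in its own promoter. The promoter of mouse Snai1 is therefore shown, since Snai1 had the largest rise among the members. It covers 250 bases before and 50 after the start of the transcript in RefSeq (GRCm38.p6, chr2:167537945-167538244, + strand), with capitals marking the match to the SNAIL and ZEB E-box.
Snai1 promoter: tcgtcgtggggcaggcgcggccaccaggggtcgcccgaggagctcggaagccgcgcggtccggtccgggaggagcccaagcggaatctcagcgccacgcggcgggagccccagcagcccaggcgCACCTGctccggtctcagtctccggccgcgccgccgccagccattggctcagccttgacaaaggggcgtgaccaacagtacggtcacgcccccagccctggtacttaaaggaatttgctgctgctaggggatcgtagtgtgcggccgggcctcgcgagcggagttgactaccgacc

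The search was for CACCTG or its reverse complement CAGGTG, and the match in Snai1 begins 126 bases upstream of the start. Of 32851 RefSeq promoter windows of this length, 20.2% held at least 1 such match. No match was found in these windows of Vim, Twist1, Tgfbi or Mmp14 or in the 4 windows of Zeb2, which says only that these letters are absent there. Zeb1 and Cdh2 were not searched. The looser E-box CANNTG, which includes both hexamers, occurred in Snai1 only at that match and in Mmp14 at 1 place, and in 72.3% of all windows.

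Snai1 (probe ILMN_2904765) read 84.6 and 79.2 in parnate/mAMFGi cells, against 57.6 and 61.3 in EpiSCs. The lowest parnate/mAMFGi array stood above the highest EpiSC array. The group means were 81.9 ± 3.82 and 59.5 ± 2.62 (SD, n = 2 each), a log2 fold change of 0.46 (SE 0.10, 95% interval 0.26 to 0.67, adjusted p = 0.00107, limma). The other Snai1 probe (ILMN_1241355) read 40.1 and 41.2 in parnate/mAMFGi cells, against 39.7 and 40 in EpiSCs, below the array medians throughout, and did not pass (log2 fold change 0.03, adjusted p = 0.867, limma). The rise of Snai1 thus rests on 1 of 2 probes, at an intensity not far above the array medians.

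Twist1 encodes a factor of cranial mesenchyme and neural crest derivatives. Its only probe (ILMN_1236188) read 75.5 and 70.4 in parnate/mAMFGi cells and 55.6 and 60.7 in EpiSCs. The groups did not overlap, and all values were near the array medians. The log2 fold change was 0.33 (SE 0.10, 95% interval 0.12 to 0.54, adjusted p = 0.0138, limma). Twist1 did not pass when EpiSC replicate 1 (adjusted p = 0.0741), parnate/mAMFGi replicate 1 (0.156) or parnate/mAMFGi replicate 2 (0.0559) was left out. Over 15 alternatives its adjusted p lay between 0.0098 and 0.156 (limma).

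ZEB1 and ZEB2 are large zinc finger and homeodomain proteins that repress Cdh1 and form a mutually repressive pair with the miR-200 microRNAs. The only Zeb1 probe (ILMN_2492500) read 138.3 and 143.4 in parnate/mAMFGi cells, against 321.2 and 228.8 in EpiSCs. The alternatives that choose or average probes use these same values. Both EpiSC arrays were higher, and replicate 1 stood well above replicate 2. Zeb1 thus fell to 140.9 ± 3.61 in parnate/mAMFGi cells, against 275 ± 65.3 in EpiSCs (SD, n = 2 each), with a log2 fold change of −0.94 (SE 0.13, 95% interval −1.23 to −0.66, adjusted p = 3.1e-05, limma). In linear units the EpiSC level was 1.93 times that of parnate/mAMFGi cells. The fall passed under all 15 alternatives run, with log2 fold changes of −1.19 to −0.70.

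Zeb2 did not pass on either of its probes. The brighter one (ILMN_1232121) read 72.9 and 78.7 in parnate/mAMFGi cells and 72.5 and 68.1 in EpiSCs, so the nearest arrays of the groups were 0.4 units apart. Its log2 fold change was 0.11 (95% interval −0.10 to 0.31, adjusted p = 0.454, limma), and that of the dimmer probe (ILMN_2419650) was −0.07 (adjusted p = 0.664, limma). Within each array, the log2 ratio of Zeb1 to Zeb2 was 0.92 and 0.87 in parnate/mAMFGi cells, against 2.15 and 1.75 in EpiSCs. Only the change of this ratio, −1.05, can be read, since it compares different probes, and its size is uncertain because Zeb2 read near the array medians. The groups did not overlap in it.

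Vimentin is the type III intermediate filament of mesenchymal cells. Vim was bright in both cell types: its only probe (ILMN_2451022) read 2132 and 1833 in parnate/mAMFGi cells and 2640 and 2493 in EpiSCs. The groups did not overlap, and the higher parnate/mAMFGi array lay closer to the EpiSC arrays. Vim averaged 1982 ± 211.2 in parnate/mAMFGi cells and 2566 ± 104.4 in EpiSCs (SD, n = 2 each), a log2 fold change of −0.38 (SE 0.10, 95% interval −0.59 to −0.16, adjusted p = 0.00802, limma). Vim did not pass when parnate/mAMFGi replicate 2 was left out (log2 fold change −0.27, adjusted p = 0.161) or under normexp with an offset of 16 (adjusted p = 0.0793). Over 15 alternatives its adjusted p lay between 0.0036 and 0.161 (limma).

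Cdh2 encodes N-cadherin, which replaces E-cadherin in the cadherin switch of mesenchymal cells. None of its 4 probes read above 53.1 on any array, near or below the array medians, and none passed. The brightest (ILMN_1247861) read 43.1 and 44.4 in parnate/mAMFGi cells, against 50.7 and 53.1 in EpiSCs. The groups did not overlap, but the log2 fold change of −0.25 (SE 0.09, 95% interval −0.45 to −0.05) had an unadjusted p of 0.0193 and an adjusted p of 0.0502 (limma). It passed under 6 of 14 alternatives, 5 of them other normalizations or background corrections, with the lowest adjusted p at 0.0113. The other 3 probes (ILMN_2764136, ILMN_2605504 and ILMN_2605503) had log2 fold changes of −0.07, −0.06 and 0.19, so the probes disagreed in sign. At these intensities the 4 arrays did not settle whether Cdh2 changed.

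Tgfbi encodes a secreted matrix protein induced by TGF-beta that binds collagens and integrins. It had the largest change of the members, and both of its probes fell. The brighter probe (ILMN_2834379) read 384.3 and 398.9 in parnate/mAMFGi cells, against 972.1 and 788.4 in EpiSCs. Each EpiSC array was far above both parnate/mAMFGi arrays, and the EpiSC arrays differed more from each other. The means were 391.6 ± 10.3 and 880.2 ± 129.9 (SD, n = 2 each), a log2 fold change of −1.16 (SE 0.11, 95% interval −1.39 to −0.93, adjusted p = 5.7e-07, limma), so that the EpiSC level was 2.24 times that of parnate/mAMFGi cells.

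The dimmer Tgfbi probe (ILMN_2727663) read 77.3 and 62.1 in parnate/mAMFGi cells and 115.2 and 95.6 in EpiSCs. Its log2 fold change was −0.60 (SE 0.12, adjusted p = 9.23e-04, limma), smaller than that of the brighter probe. The fall of Tgfbi passed under all 15 alternatives run, which gave log2 fold changes of −1.31 to −0.60.

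Mmp14 encodes a membrane-type matrix metalloproteinase that cleaves collagen at the cell surface and activates the secreted protease MMP2 with the help of TIMP2. Its only probe (ILMN_1240726) read 737.8 and 727 in parnate/mAMFGi cells, against 603.7 and 607.8 in EpiSCs. The replicates were close together and the groups did not overlap. The log2 fold change was 0.27 (SE 0.09, 95% interval 0.08 to 0.47, adjusted p = 0.0281, limma), which is 1.21 times the EpiSC level. Mmp14 did not pass whichever array was left out: the adjusted p was 0.158 and 0.126 when parnate/mAMFGi replicates 1 and 2 were omitted in turn, and 0.0624 and 0.0522 when EpiSC replicates 1 and 2 were. It did not pass either with common-median scaling (0.0746), with an eBayes trend (0.0862) or under normexp with an offset of 16 (0.0528). Over 15 alternatives its adjusted p lay between 0.00699 and 0.158 (limma).

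**Figure D3:**
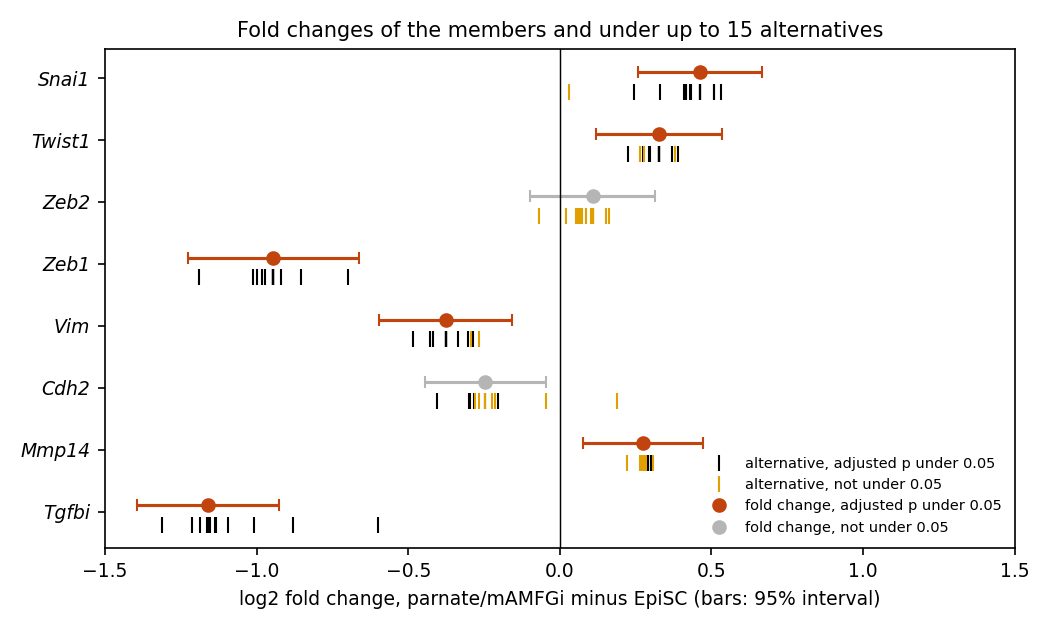
The log2 fold change (parnate/mAMFGi minus EpiSC) of each member with its 95% interval (circles and bars) and the values under up to 15 alternative settings as ticks below it, black where the adjusted p was under 0.05 and yellow where it was not. Zeb1 and Tgfbi have black ticks only, Snai1 has a single yellow tick from its dimmer probe, and Mmp14 has ticks of both colours close to 0.27.

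Genes of the partners of MMP14 had larger fold changes than Mmp14. Mmp2, the gelatinase that MMP14 activates, read 1037 and 916.4 in parnate/mAMFGi cells and 3540 and 2750 in EpiSCs, a log2 fold change of −1.68 (SE 0.12). Timp2, its inhibitor and adaptor, read 920.6 and 973.6 in parnate/mAMFGi cells and 253.5 and 212.7 in EpiSCs, a log2 fold change of 2.03 (SE 0.10). Neither gene's groups overlapped. Of 22 measured metalloproteinases and inhibitors, 9 rose, 3 fell and 10 did not pass, and the median log2 fold change was 0.08. Mmp14 is in this list, and without it 8 rose and 3 fell among 21. The stromelysin gene Mmp3 had the largest rise (3.56, SE 0.10, and 2.15 on its dimmest probe), with 735.5 and 664.5 in parnate/mAMFGi cells and 57 and 61.5 in EpiSCs, and the collagenase gene Mmp13 followed (2.34, SE 0.09), although its dimmer probe did not pass (adjusted p = 0.496, limma). Fibroblasts express Mmp2, which fell, as well as Mmp3, Mmp13 and Timp2, which rose, and the part of feeder RNA in these values was not tested.

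The other factors that can drive the transition were also divided. Of 16 measured in all, 5 rose, 7 fell and 4 did not pass, with a median log2 fold change of −0.15. Among the 12 that are not members, 3 rose and 6 fell. The largest changes of these were falls of about 2-fold: the organizer homeobox gene Gsc (log2 fold change −1.08, SE 0.14), the forkhead gene Foxc1 (−1.05, SE 0.10) and the Snai1 paralog Snai3 (−1.04, SE 0.10). Foxc1 read 48.5 and 48.6 in parnate/mAMFGi cells, below the array medians, against 110 and 91.6 in EpiSCs. Snai3 read 278.9 and 239.9 in parnate/mAMFGi cells, against 520 and 543.1 in EpiSCs, so it fell while Snai1 rose. Klf8, a Krüppel-like repressor of Cdh1, had a log2 fold change of 0.78 (SE 0.09) and read at most 64.8 on any array. Twist2, the paralog of Twist1, read 58.5 and 54.3 in parnate/mAMFGi cells and 51.3 and 67.9 in EpiSCs, with overlapping groups (adjusted p = 0.75, limma). Tcf3 was not analysed here.

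Genes that the SNAIL and ZEB proteins repress did not move together. Of 18 measured junction, polarity and keratin genes, 4 rose, 12 fell and 2 did not pass, with a median log2 fold change of −0.49. Cdh1, the E-cadherin gene, rose: it read 1974 and 2022 in parnate/mAMFGi cells and 963.8 and 796.3 in EpiSCs (log2 fold change 1.19, SE 0.11). The other rises were the junction genes Cldn4 (1.22, SE 0.10), Tjp1 (0.45, SE 0.13) and Pkp3 (0.33, SE 0.10). Pkp3 read at most 63 on any array. The falls were led by Krt18 (−3.44, SE 0.11), Krt19 (−2.64, SE 0.12) and Krt8 (−2.61, SE 0.10), the keratins of simple epithelia, and the tight junction gene Cldn3 (−1.64, SE 0.10). Cdh1 and the keratins, which all mark epithelia, thus moved in opposite directions.

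Factors that hold the epithelial state rose or did not pass. Of 12, 6 rose, 0 fell and 6 did not pass in limma (0 fell at an unadjusted p of 0.05), with a median log2 fold change of 0.20. Among the rises, Ovol1, Grhl3 and Grhl1 were dim and read at most 93.2 on any array. Esrp2, Elf5, Cdx1 and Foxa1, which did not pass, read at most 54.8 on any array. In EpiSCs, all of these dim genes read at most 61.9, near the array medians, so they had little room to fall. The dimmest Grhl1 probe did not pass (adjusted p = 0.115, limma). Klf5 read 4947 and 5337 in parnate/mAMFGi cells, against 812.6 and 750.7 in EpiSCs (2.72, SE 0.10). Grhl2, a grainyhead factor that represses ZEB1 in human cells, read 541.5 and 700.6 in parnate/mAMFGi cells, against 178.6 and 135.2 in EpiSCs (1.99, SE 0.14). The ETS factor gene Elf3 had a log2 fold change of 1.46 (SE 0.10), and its dimmest probe one of 0.76. Klf5 is also an ES cell gene, so this list is not particular to epithelia.

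Among the cadherins and catenins, 1 of 14 measured genes rose (Cdh1), 4 fell and 9 did not pass, with a median of −0.04. Thus 5 of 14 passed, against 41.5% of all genes, so the count is not particular to this list. The P-cadherin gene Cdh3 fell, with 173 and 155.5 in parnate/mAMFGi cells and 411.2 and 351.7 in EpiSCs (−1.21, SE 0.11), although its dimmer probe stood at 0.01. The alpha-catenin gene Ctnna1 fell (−0.61, SE 0.12) and Cdh6 fell at intensities of at most 61.2 (−0.56, SE 0.09). The mesenchymal cadherin gene Cdh11 read at most 45.1 on any array and, like Cdh2, did not pass.

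Mesenchymal effectors other than the members rose more often than they fell. Of 20 measured, 9 rose, 4 fell and 7 did not pass, with a median of 0.08, and without Vim, Cdh2 and Tgfbi 9 rose and 2 fell among 17. Lox (4.23, SE 0.11), the collagen genes Col1a1 (2.21, SE 0.11) and Col3a1 (1.93, SE 0.14) and the calcium-binding protein gene S100a4 (1.89, SE 0.09) had the largest rises. The dimmer Col3a1 probe did not pass (adjusted p = 0.397, limma). In EpiSCs, Cdh11, Cnn1, Itgb3, Postn, Tagln, S100a4, Itgav and Lox read at most 65.2, near the array medians, so these genes had little room to fall. Of this list, 5 measured genes, among them Lox, Col1a1 and Col3a1, are also fibroblast feeder markers, so its rises and the feeder list's are not separate evidence. The smooth muscle actin gene Acta2 read 3292 and 3269 in parnate/mAMFGi cells and 5143 and 2881 in EpiSCs and did not pass (adjusted p = 0.396, limma), but fell without EpiSC replicate 2 (−0.65, adjusted p = 1.71e-04, limma). The fibronectin gene Fn1 was not analysed here.

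TGF-beta signalling induces Tgfbi, Snai1 and Zeb1 in many cells. In its list, 8 of 19 measured genes rose, 6 fell and 5 did not pass, with a median of 0.15. Tgfbi is itself in this list, and without it 8 rose and 5 fell among 18. The ligand gene Tgfb1 fell (−0.62, SE 0.10), with 71 and 65.5 in parnate/mAMFGi cells and 111 and 99.3 in EpiSCs, while Tgfb3 rose (1.27, SE 0.10), with 104.9 and 91.8 in parnate/mAMFGi cells and 40.3 and 40.9, below the array medians, in EpiSCs. The co-receptor gene Eng, also an endothelial gene, had the largest rise (2.71, SE 0.10). The signal transducer gene Smad3 fell (−0.89, SE 0.12), with 106.2 and 84 in parnate/mAMFGi cells and 164.2 and 186 in EpiSCs.

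**Figure D4:**
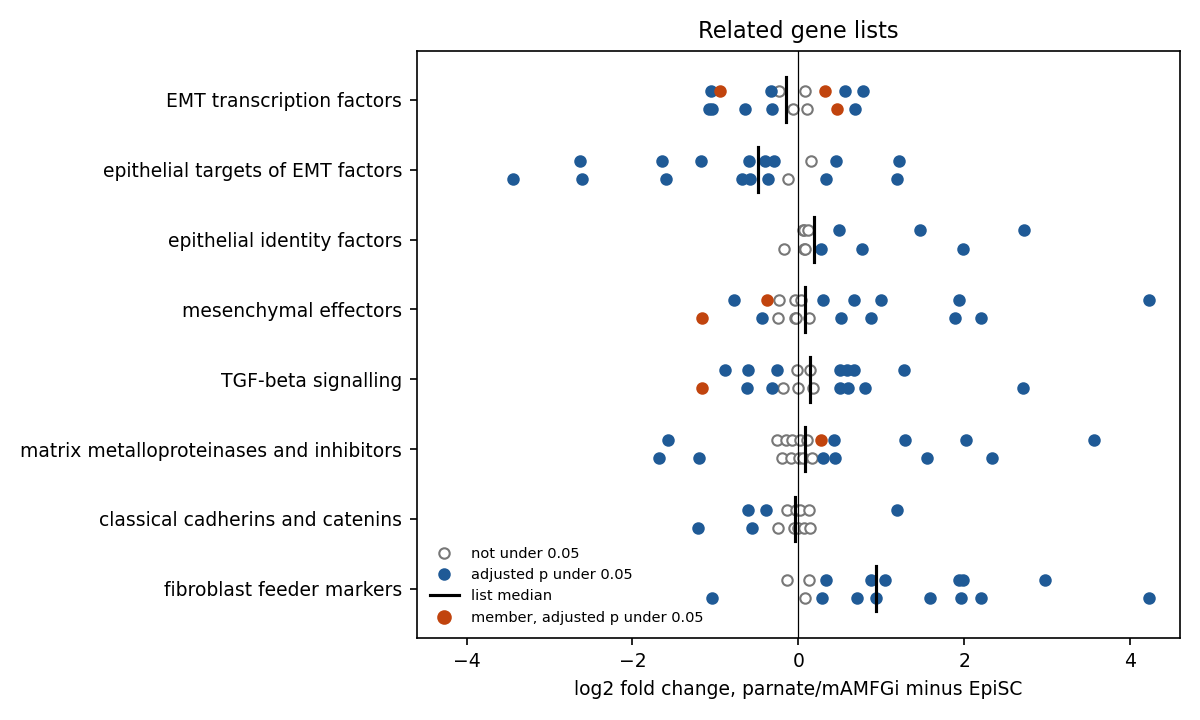
The log2 fold change (parnate/mAMFGi minus EpiSC) of each measured gene in 8 related lists, with filled circles where the adjusted p was under 0.05, orange for members that passed, open circles for genes that did not pass, and a bar at each list's median. The epithelial targets have a median of −0.49 and the feeder markers one of 0.93, while the other lists have medians between −0.15 and 0.20.

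Genes with the pattern most like the 3 most changed members were sought by the Euclidean distance between log2 values centred on each gene's mean, over the 4 arrays and 16585 other genes. The nearest to Tgfbi was Zfp12 (distance 0.02), which read 237.2 and 245.4 in parnate/mAMFGi cells and 592.7 and 488.4 in EpiSCs. The nearest to Zeb1 was Ugcg (0.05), with 875.5 and 946.5 in parnate/mAMFGi cells and 2060 and 1494 in EpiSCs. The nearest to Snai1 was Rsad1 (0.01), with 96.6 and 91.1 in parnate/mAMFGi cells and 66.4 and 70.6 in EpiSCs. Within a distance of 0.1 there were 33 genes for Tgfbi, 8 for Zeb1 and 175 for Snai1, so with 4 arrays such likeness is common.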

How the data were processed

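The authors deposited processed intensities, 1 per probe and array, of biotin-labelled cRNA made from 500 ng of total RNA (Illumina TotalPrep kit, per the labels' protocols). How the authors corrected background and normalized, and with which software, is not stated in the labels, and the near-equal array medians point to a normalization between arrays. A deposited table of non-normalized signals and detection values was not used, because the names of its 8 columns match no label. Intensities were log2-transformed with no pseudocount and no filter and tested by the lmFit and eBayes functions of limma 3.58.1 under R 4.3.3, with Benjamini-Hochberg adjustment over all 25697 probes. Each probe had 2 residual and 11.8 prior degrees of freedom. The fit was also run on simulated data with noise drawn from its own fitted prior. Such a run checks the code and cannot show that the prior suits these arrays.

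Probe symbols came from the platform annotation: 23978 probes had 1 symbol, 0 several and 1719 none, and 0 symbols differed from RefSeq (GRCm38.p6) among the 23962 matched by gene identifier. The members and the 12 gene lists were chosen with earlier results of these data known. Named genes are all members, up to 4 genes per list ranked by absolute change, paralogs and partners fixed by name, and the nearest gene to each of 3 members. The replicate numbers of the groups are not said to mark a shared culture or day, and the deviations of same-numbered arrays correlated at r = −0.06 over probes, so the arrays were not paired. Between arrays, r was 0.998 within parnate/mAMFGi, 0.996 within EpiSC and 0.942 to 0.945 between groups. The number of arrays limits the precision. Alternatives were other normalizations, background corrections, priors, probes and subsets of the arrays, and the replicate block.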

Additional observations from a re-analysis of the deposited data

How the results depend on the processing

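The number of members called, 6 in the comparison as reported, lay between 3 and 5 when 1 array was left out and between 5 and 7 under the other 11 alternatives, and the calls over all probes, 9870 as reported, ranged from 7490 to 9986. Of the members' directions, Zeb1, Tgfbi, Vim, Snai1, Twist1 and Mmp14 kept theirs in all 15 alternatives, and Zeb1 and Tgfbi passed in all of them, Snai1 in 14, Vim in 13, Twist1 in 12 and Mmp14 in 8. Zeb1, Vim, Twist1 and Mmp14 had 1 probe each, so the alternatives that choose or average probes used the same values for them. Cdh2 has no value among probes above the median intensity, and its dimmest probe stood at 0.19. With the replicate number as a block, 6 members and 9912 probes were called, and the block changed no call of a member. The dimmest probe reversed Cdh3 (0.0071) and Btrc (4.8e-04), neither past the threshold. Counts in the 12 lists stayed within 1.5 times. Scaling moved the median of all probes by less than 0.1 on the log2 scale. The table before normalization could not be matched to the labels by name, so neqc was not run. With 1 array left in a group, that array is assumed to vary like the others. Signal close to the array medians limits Cdh2, Zeb2, Snai1 and Twist1.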

Other observations

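Intermediate filament genes other than Vim also split. Of 21 measured, 5 rose, 9 fell and 7 did not pass (limma), with a median log2 fold change of 0.07. Besides the simple keratins, the neurofilament gene Nefm fell, with 56.2 and 50.4 in parnate/mAMFGi cells and 246 and 246.5 in EpiSCs (log2 fold change −2.21, SE 0.10). At least 2-fold changes numbered 3 rises and 7 falls.

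Of 16 measured corepressors of SNAIL and ZEB proteins and regulators of SNAIL stability, 3 rose, 7 fell and 6 did not pass, with a median of −0.22 and 0 changes of at least 2-fold. The deacetylase gene Hdac1 read 1080 and 1028 in parnate/mAMFGi cells, against 589.6 and 511.8 in EpiSCs (0.94, SE 0.10), and Hdac2 read 3975 and 4050 in parnate/mAMFGi cells, against 6376 and 6088 in EpiSCs (−0.63, SE 0.09), so these paralogs moved in opposite directions. Rcor2, a CoREST family gene, rose (0.70, SE 0.09).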
